A study of Homo sapiens with 16 samples.

Results

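The hypoxia inducible factor (HIF) and hypoxia response genes are a list of 38 genes named by symbol. It holds 3 HIF subunits, 4 genes of oxygen sensing and HIF degradation, and 31 genes known as HIF targets or close partners of them. The rule names the genes and uses no measured value, but the list was drawn up with earlier results of these data known, and all 38 were found among the 66023 genes counted. RNA-seq was performed on 6 lines of SW480, an established human colon adenocarcinoma cell line, with 16 samples in all. The lines were untransduced Parental cells (n = 2), shScrambled with a pLKO.1-puro vector for an shRNA that targets no mammalian gene (n = 2), shAjuba1 with an shRNA to the coding region of AJUBA (n = 3), shAjuba2 with an shRNA to its non-coding region (n = 3), Ajuba OE with a lentiviral pHAGE construct that expresses FLAG-HA tagged Ajuba from a CMV promoter (n = 3), and Control with that construct after the Ajuba sequence was cut out (n = 3). The 5 transduced lines went through puromycin selection, and the labels give no hypoxic treatment of any line. The study describes the samples of a line as technical replicates, so p-values measure only the spread between these samples.

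HIF is a transcription factor made of an oxygen-regulated alpha subunit, HIF-1 alpha (HIF1A) or HIF-2 alpha (EPAS1), and the constant partner ARNT. In the presence of oxygen, prolyl hydroxylases of the PHD family (EGLN1, EGLN2 and EGLN3) mark the alpha subunit, and the VHL ubiquitin ligase then sends it to the proteasome. LIM proteins of the Ajuba family are known as scaffolds that bring PHD and VHL together. Much of this control acts on protein, which RNA-seq does not measure. When HIF is active, it binds short elements near its targets and raises genes for glucose uptake and glycolysis, acid handling, vessel growth, mitophagy and matrix hydroxylation. CA9, a carbonic anhydrase of the cell surface, and VEGFA, a growth factor of blood vessels, are its best known readouts in tumors.

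The core of a HIF binding element is ACGTG or GCGTG, read on either strand. It was searched in the RefSeq promoter windows of GRCh38.p14, which run from 250 bases before to 50 bases after an annotated start, and 33 of the 38 genes had 54 such windows. VHL, VEGFA, SLC2A3, NDRG1 and BNIP3L were not matched. A core stood in 38 of the 54 windows (70.4%), against 48.4% of all 35116 windows in the table, and in at least 1 window of 29 of the 33 genes (87.9%), against 52.4% of all symbols. The share by gene grows with the windows per gene, and these were 54 for 33 genes and 35116 for 27305 symbols. The palindrome CACGTG counts as a match on both strands. A match describes letters and not binding. The windows shown are those of CA9, the first marker, of EPAS1, PFKFB3 and ANKRD37, which rose in Ajuba OE, and of PGK1 and LDHA, which moved together between replicates. The strand of the gene is given, and capitals mark 1 core or its reverse complement.
CA9, 18 bases before the start, chr9:35673900-35673924, plus strand: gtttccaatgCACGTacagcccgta
EPAS1, 117 bases before the start, chr2:46297280-46297304, plus strand: gcctgccggcGCGTGcccgcccaca
PFKFB3, 107 bases before the start, chr10:6202815-6202839, plus strand: cctcctccccACGTGgaagggggct
ANKRD37, 143 bases before the start, chr4:185396688-185396712, plus strand: gtgtttgtgtACGTGcggccgtggc
PGK1, 202 bases before the start, chrX:78104036-78104060, plus strand: ggcgtgccggACGTGacaaacggaa
LDHA, 86 bases before the start, chr11:18394467-18394491, plus strand: cccgactcacACGTGggttcccgca

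Total counts ranged from 30132396 to 69684675 per sample, and a normalised read count is given as RPM, the count divided by the sample total and multiplied by 1000000. AJUBA, the gene that was targeted, was 49.6, 47.3 and 53.5 RPM in shAjuba1 and 60.3, 68.6 and 57.1 RPM in shAjuba2, all below the 83.4 and 81.6 RPM of shScrambled. It was 549.7, 462 and 566 RPM in Ajuba OE against 89.6 to 100.5 RPM in Control. The fall passed the test in shAjuba1 (log2 fold change -0.73 ± 0.08 SE, adjusted p = 2.19e-05 in the quasi-likelihood test of edgeR, adjusted after Benjamini-Hochberg as are all adjusted p here) but not in shAjuba2 (-0.46 ± 0.13, adjusted p = 0.0773), and the rise was 2.56 ± 0.11 (adjusted p = 7.69e-05). Of 8 markers of colon epithelium, 7 were over 1 RPM in every sample and CEACAM5 reached 0.04 RPM at most. The leukocyte marker PTPRC and the endothelial marker CDH5 did not exceed 0.06 and 0.03 RPM. All 3 leukocyte markers together summed to 0.50 to 1.92 RPM per sample. The 3 endothelial markers summed to 2.24 to 5.39 RPM, and VWF among them had 62 to 266 counts. Their sum was 5.05 to 5.39 RPM in shScrambled and 2.30 to 2.37 RPM in Parental. The summed level of the 8 epithelial markers was 4062 to 4203 RPM in shScrambled, 4996 to 5205 in shAjuba1 and 2901 to 5494 in shAjuba2. It was 6091 to 6606 in Parental, 4850.4 to 5967 in Control and 5754 to 7008 in Ajuba OE. That of 4 fibroblast markers was 15.5 to 24.5 RPM in Control and 6.21 to 10.4 RPM in Ajuba OE. It was 22.1 to 22.5 in shScrambled, 18.0 to 22.5 in shAjuba1, 24.9 to 37.6 in shAjuba2 and 18.8 to 19.3 in Parental. Of these markers, COL1A1 had 227 to 1172 counts, PDGFRB 20 to 478 and COL1A2 1 to 20, and DCN was 0.02 RPM at most in any sample. The part of these shifts in the results was not tested. Replicate 2 of shAjuba2, of Control and of Ajuba OE stood apart from replicates 1 and 3 in many of the 38 genes, so the results of these lines are also given without it.

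Most of the 38 genes were transcribed in all 6 lines. A level of more than 1 RPM in every sample was found for 35 genes, and 9 genes were over 100 RPM in every sample. Per kilobase of exon, and averaged over the 16 samples, the enolase ENO1 (208 RPM per kb), the triosephosphate isomerase TPI1 (198) and the glucose transporter SLC2A3 (169.8) were highest. HIF1A and EPAS1 had similar levels on this scale, 30.4 and 33.6 RPM per kb, and ARNT had 4.53. CA9 and the second surface carbonic anhydrase, CA12, were the only genes under 1 RPM in every sample. CA9 had 2 to 25 counts and 0.06 to 0.50 RPM, and CA12 had 3 to 31 counts and 0.06 to 0.62 RPM. VEGFA, the other marker, was present at 13.0 to 37.8 RPM. Of the 2 defining markers of the response, CA9 was therefore near 0 in every line and VEGFA was not.

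**Figure D1:**
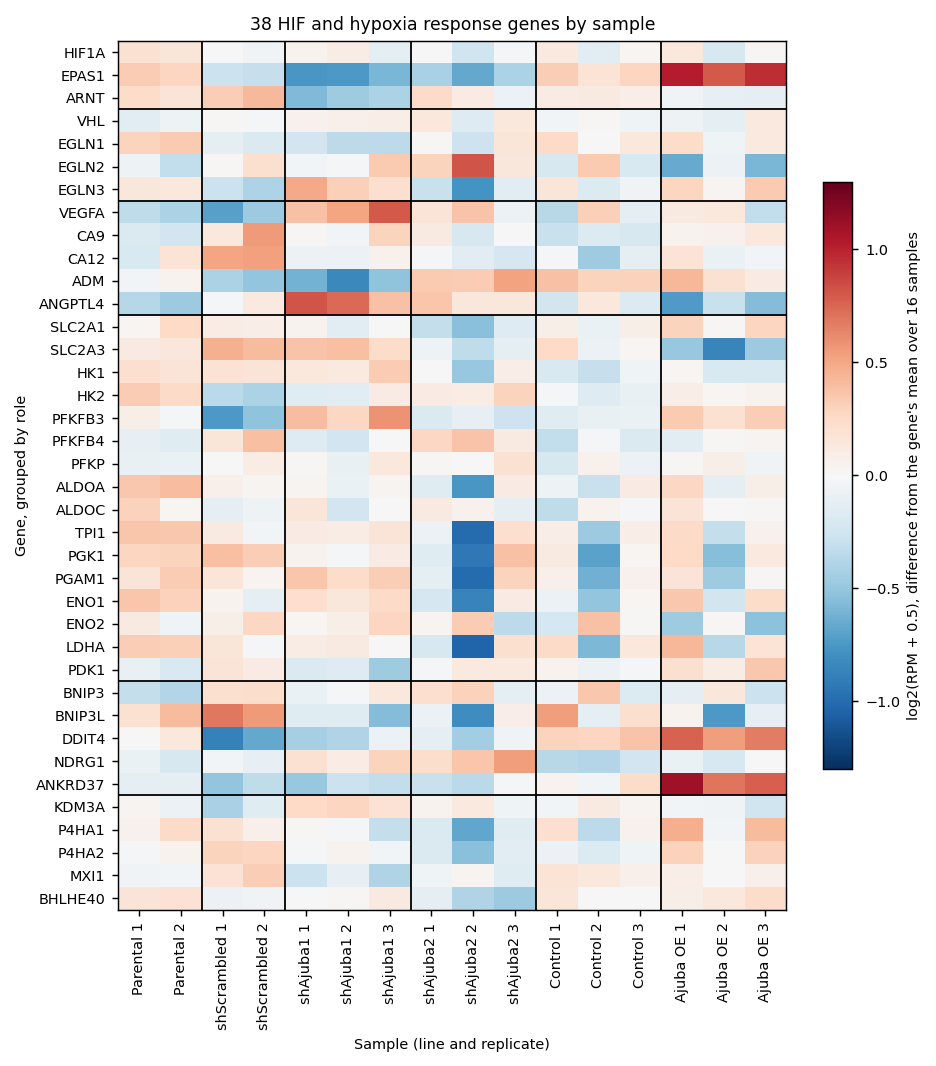
Heat map of the 38 genes (rows, grouped by role) in the 16 samples (columns, grouped by line), as log2(RPM + 0.5) minus the mean of the gene over all samples. EPAS1 and ANKRD37 are highest in the 3 Ajuba OE samples, and PGK1, LDHA, TPI1 and PGAM1 are low in replicate 2 of shAjuba2, Control and Ajuba OE.

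The lines were compared with edgeR over all genes that passed the expression filter, and a gene was called a differentially expressed gene (DEG) at a Benjamini-Hochberg adjusted p under 0.05. Among the 6 lines together, 25 of the 38 genes were DEG (45.7% of all genes tested). In shAjuba1 compared to shScrambled, 17 of 38 were DEG, which is 44.7% of the genes against a background of 38.4% of all genes tested. Of these, 8 rose (background 18.2%) and 9 fell (background 20.2%). In shAjuba2 compared to shScrambled, 6 of 38 were DEG (15.8%, background 7.63%), with 3 higher (background 3.19%) and 3 lower (background 4.44%). In Ajuba OE compared to Control, 3 of the 37 tested were DEG (8.11%, background 5.43%), all 3 higher (background 2.39%) and 0 lower (background 3.03%). With edgeR's unadjusted p under 0.05, 8 genes were higher and 1 was lower in Ajuba OE (background 18.6%, both directions), and DESeq2 called 4 higher and 1 lower (background 6.72%). The list had a median log2 fold change of -0.03 with shAjuba1, -0.16 with shAjuba2 and 0.17 with overexpression of Ajuba, beside -0.0065, -0.0050 and -0.015 over all genes tested. DEG went both ways in either knockdown (KD) line, and the 3 DEG of the overexpression (OE) line are too few to give the list a direction. CA12, counted among the DEG of both KD lines, passed the expression filter only through the shScrambled samples, where it was high. In bulk samples, fewer cells of a type and less RNA per cell cannot be told apart. Without shScrambled replicate 1 or 2, 9 of the 17 DEG of shAjuba1 and 0 of the 6 DEG of shAjuba2 were called. One shScrambled sample then remains, the spread comes from the KD line alone and the lone sample is assumed to vary like it, so that calls over all genes also fell, to 20.8% and 23.0% in shAjuba1 and to 0.950% and 0.784% in shAjuba2. These losses thus say little about the size of a change, and the folds are given beside them. Without Control replicate 3 none of the 3 DEG of Ajuba OE was called (background 1.89%).

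**Figure D2:**
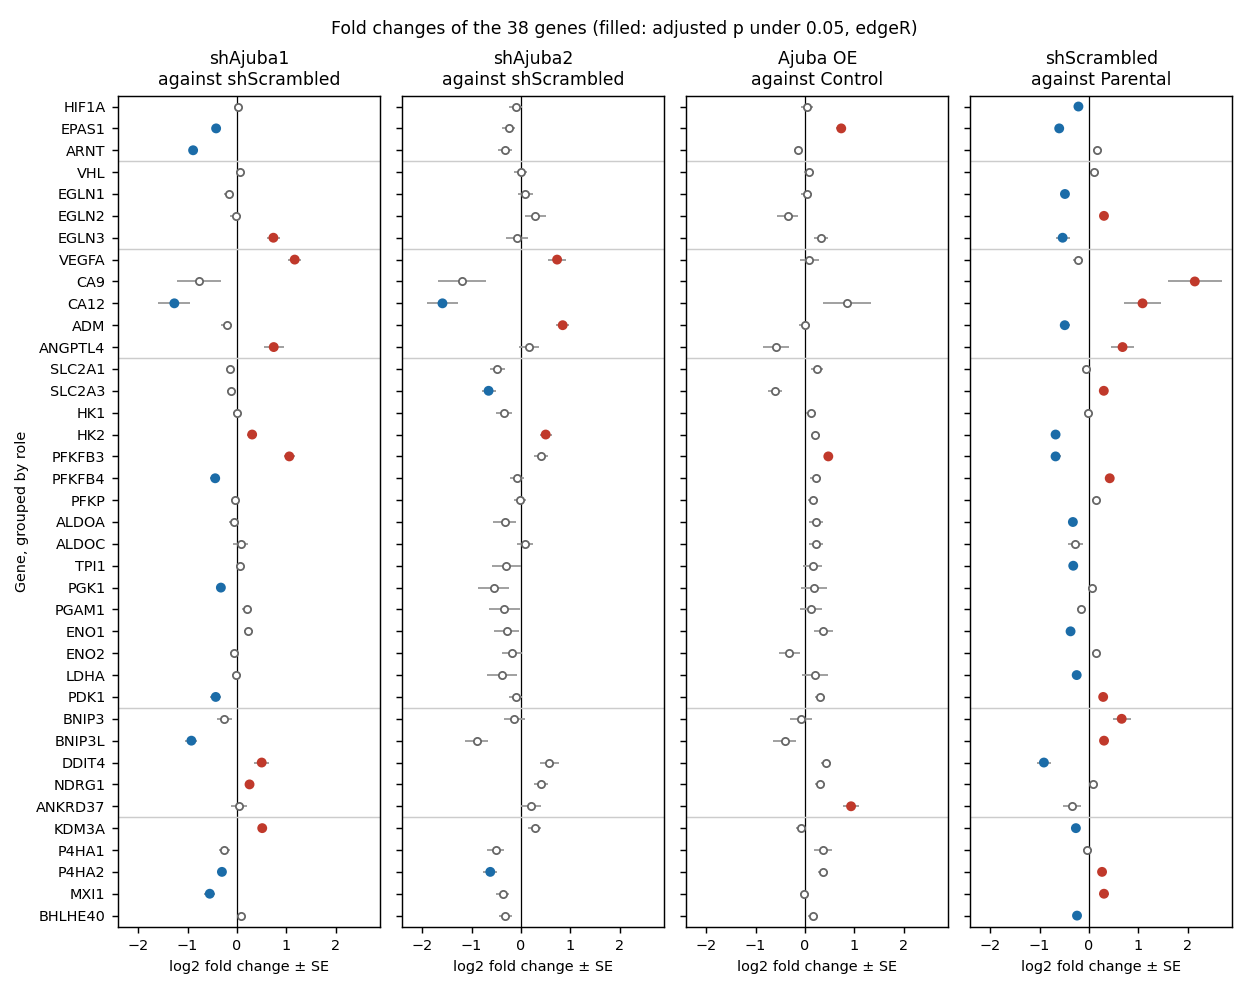
log2 fold change ± SE of the 38 genes (rows, grouped by role) in 4 comparisons of lines, with filled points for DEG (red higher, blue lower) and open points for genes that did not pass; CA9 was not tested in Ajuba OE. DEG stand on both sides of 0 in the panels of shAjuba1, shAjuba2 and shScrambled, and only the 3 filled points EPAS1, PFKFB3 and ANKRD37 appear in the panel of Ajuba OE.

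Among the HIF subunits, EPAS1 fell in shAjuba1 and rose in Ajuba OE. EPAS1 (hg38 chromosome 2, 46293667 to 46386697, plus strand) was 458, 391 and 439 RPM in Ajuba OE and 281, 255 and 273 RPM in Control. It was 282 and 274 RPM in Parental, 185 and 183 RPM in shScrambled, 168, 142 and 169.6 RPM in shAjuba2, and 133, 134 and 149 RPM in shAjuba1. Every Ajuba OE sample was above every other sample, Parental and Control overlapped, and every KD sample was below both shScrambled samples. The log2 fold change was 0.73 ± 0.10 in Ajuba OE (adjusted p = 0.00579), -0.42 ± 0.08 in shAjuba1 (adjusted p = 0.000951) and -0.25 ± 0.13 in shAjuba2, which did not pass (adjusted p = 0.253). The mean of Ajuba OE over that of shAjuba1 was 3.10-fold, but this range also holds the step between the control lines, since shScrambled itself was lower than Parental (-0.60 ± 0.08, adjusted p = 2.32e-06). Compared to Parental instead of its own control, EPAS1 was -1.03 ± 0.07 in shAjuba1 (adjusted p = 2.16e-06), -0.86 in shAjuba2 (adjusted p = 0.0163) and 0.68 ± 0.12 in Ajuba OE (adjusted p = 0.0139). The call in Ajuba OE was lost narrowly without Control replicate 3 (log2 fold change 0.74, adjusted p = 0.0512), and it held without replicate 2 of both lines (0.74, adjusted p = 0.00211).

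ARNT (hg38 chromosome 1, 150809713 to 150876708, minus strand), the partner that both alpha subunits need, fell in shAjuba1. It was 19.1, 20.6 and 21.4 RPM there, compared to 36.0 and 38.6 RPM in shScrambled (log2 fold change -0.89 ± 0.09, adjusted p = 1.02e-05), and compared to Parental it was also lower (-0.73, adjusted p = 9.66e-05). All 3 shAjuba1 samples were below all other samples of the study. In shAjuba2 it was 34.2, 31.0 and 27.2 RPM (-0.32 ± 0.13, adjusted p = 0.178), and in Ajuba OE 27.7, 26.6 and 26.2 RPM against 30.9, 31.0 and 30.5 RPM in Control (-0.14 ± 0.08, adjusted p = 0.460). The 2 KD lines differed from each other in ARNT (shAjuba1 compared to shAjuba2 -0.55 ± 0.12, adjusted p = 0.0126), whereas for EPAS1 the difference between them was -0.16 ± 0.11 and did not pass (adjusted p = 0.358).

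HIF1A (hg38 chromosome 14, 61695513 to 61748259, plus strand) was not a DEG in any comparison of an Ajuba line with its control. Its level ranged from 130.4 to 179 RPM over the 16 samples, and the line means differed by at most 1.21-fold. The log2 fold change was 0.02 ± 0.09 in shAjuba1 (adjusted p = 0.864), -0.11 ± 0.12 in shAjuba2 (adjusted p = 0.611) and 0.04 ± 0.12 in Ajuba OE (adjusted p = 0.899). An interval of 2 SE around these values ran from -0.15 to 0.20, from -0.36 to 0.14 and from -0.19 to 0.27, respectively.

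**Figure D3:**
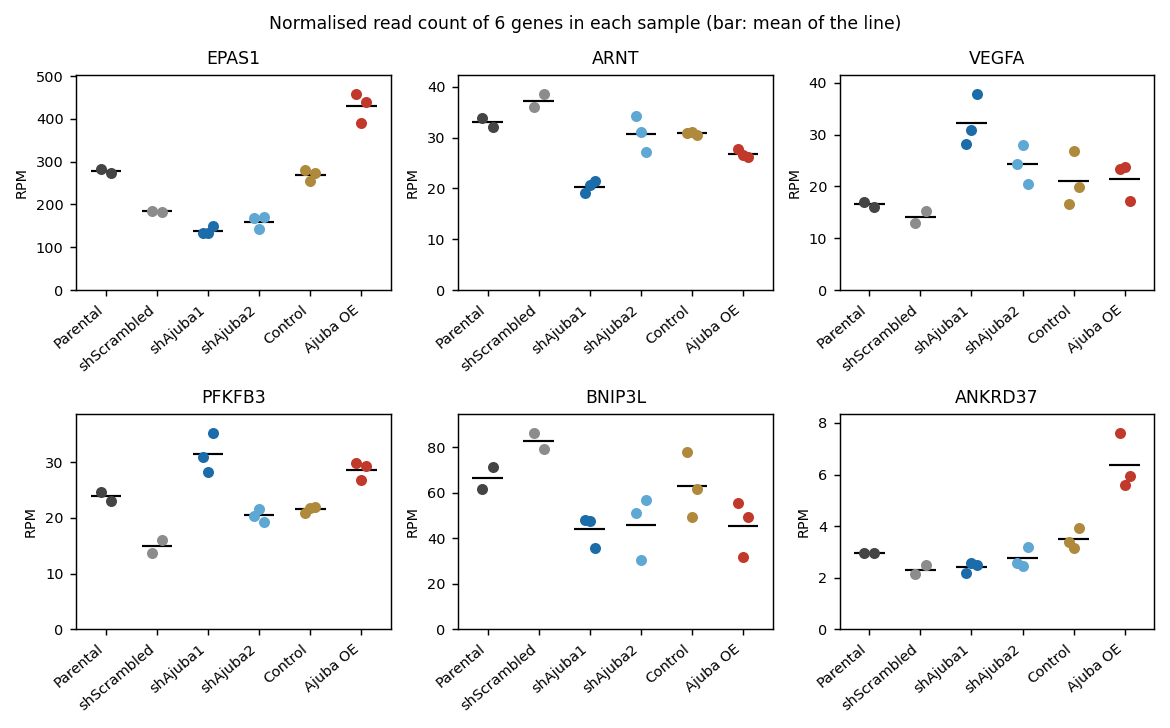
Normalised read count (RPM, linear axis from 0) of EPAS1, ARNT, VEGFA, PFKFB3, BNIP3L and ANKRD37 in every sample of the 6 lines, with a bar at the mean of each line. EPAS1 is between 391 and 458 RPM in Ajuba OE and below 150 RPM in all shAjuba1 samples, ARNT is lowest in shAjuba1, and ANKRD37 is highest in Ajuba OE.

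Of the 4 genes of oxygen sensing and degradation, EGLN3 was the only DEG in a comparison with Ajuba. VHL, the substrate receptor of the ligase, was 50.8 to 62.9 RPM in all samples, with log2 fold changes of 0.05 ± 0.08 in shAjuba1 (adjusted p = 0.647), -0.01 ± 0.13 in shAjuba2 (adjusted p = 0.985) and 0.08 ± 0.10 in Ajuba OE (adjusted p = 0.754). EGLN3, a PHD that is itself a HIF target, was 8.67, 7.53 and 7.04 RPM in shAjuba1. These values were above the 4.86 and 4.41 RPM of shScrambled (0.74 ± 0.14, adjusted p = 0.000993). The Parental samples, at 6.68 and 6.64 RPM, lay between them, and compared to Parental the rise was 0.19 ± 0.13 and did not pass (adjusted p = 0.256). EGLN3 was 4.82, 3.29 and 5.41 RPM in shAjuba2 (-0.09 ± 0.22, adjusted p = 0.832) and 7.36, 6.15 and 7.72 RPM in Ajuba OE against 6.76, 5.22 and 5.78 RPM in Control (0.32 ± 0.15, adjusted p = 0.296). The 2 KD lines differed in EGLN3 by 0.83 ± 0.19 (adjusted p = 0.0139).

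EGLN1, which encodes PHD2, the main oxygen sensor in most cells, did not pass in shAjuba1 (-0.17 ± 0.09, adjusted p = 0.160), shAjuba2 (0.09 ± 0.15, adjusted p = 0.739) or Ajuba OE (0.03 ± 0.11, adjusted p = 0.908). Compared to Parental it was -0.66 in shAjuba1 (adjusted p = 0.000125), and shScrambled was lower than Parental by a similar step (-0.49 ± 0.08, adjusted p = 7.27e-05). EGLN2, which encodes PHD1, was -0.02 ± 0.11 in shAjuba1 (adjusted p = 0.890), 0.29 ± 0.22 in shAjuba2 (adjusted p = 0.443) and -0.35 ± 0.22 in Ajuba OE (adjusted p = 0.455). Its highest sample in shAjuba2, Control and Ajuba OE was replicate 2 each time, at 92.1, 65.9 and 49.4 RPM. Without replicate 2 of both lines EGLN2 was -0.38 ± 0.09 in Ajuba OE (adjusted p = 0.0401).

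Among the genes of pH control, vessels and secreted factors, VEGFA (hg38 chromosome 6, 43770184 to 43786487, plus strand) rose in both KD lines. It was 28.2, 30.8 and 37.8 RPM in shAjuba1 (1.17 ± 0.13, adjusted p = 1.71e-05) and 24.3, 28.1 and 20.4 RPM in shAjuba2 (0.73 ± 0.18, adjusted p = 0.0495), compared to 13.0 and 15.3 RPM in shScrambled. All 6 KD samples were above both shScrambled samples. Parental had 17.0 and 16.1 RPM, and compared to Parental the rise passed in shAjuba1 (0.93, adjusted p = 0.000133) but not in shAjuba2 (0.49, adjusted p = 0.0936). In Ajuba OE, with 23.4, 23.8 and 17.1 RPM against 16.6, 26.8 and 19.8 RPM in Control, the groups overlapped (0.09 ± 0.20, adjusted p = 0.867). The call in shAjuba2 was lost without shAjuba2 replicate 1 (0.76, adjusted p = 0.139) and without shScrambled replicate 1 or 2 (0.62, adjusted p = 0.392, and 0.85, adjusted p = 0.235), and also when all genes were required to have at least 10 counts in every sample (0.74, adjusted p = 0.0583). Without shAjuba2 replicate 2 it held (0.59, adjusted p = 0.00287).

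ADM, a vasodilator peptide, rose in shAjuba2 and differed between the 2 KD lines. It was 22.9, 22.8 and 26.2 RPM in shAjuba2 (0.84 ± 0.13, adjusted p = 0.0121) and 11.6, 9.82 and 12.3 RPM in shAjuba1 (-0.21 ± 0.12, adjusted p = 0.175), against 13.4 and 12.5 RPM in shScrambled. shAjuba1 compared to shAjuba2 gave -1.04 ± 0.13 (adjusted p = 0.000623), the largest difference between the 2 KD lines among the 38 genes, and without any 1 of their samples this call held. Parental was 17.5 and 18.6 RPM, and shAjuba2 compared to Parental was 0.35 (adjusted p = 0.122). Compared to shScrambled, ADM did not pass without shScrambled replicate 1 or 2 (0.90, adjusted p = 0.141, and 0.79, adjusted p = 0.203). ANGPTL4, a secreted inhibitor of lipoprotein lipase, was 2.91, 2.72 and 2.01 RPM in shAjuba1 against 1.40 and 1.61 RPM in shScrambled (0.74 ± 0.20, adjusted p = 0.0109) and 0.90 to 1.00 RPM in Parental (1.41, adjusted p = 0.000399). Against shScrambled it did not pass without shScrambled replicate 1 or 2 (0.67, adjusted p = 0.0907, and 0.85, adjusted p = 0.0506).

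The carbonic anhydrases gave only few counts. CA9 was 0.25 and 0.50 RPM in shScrambled, 0.17 to 0.33 RPM in shAjuba1 (-0.77 ± 0.44, adjusted p = 0.187) and 0.09 to 0.24 RPM in shAjuba2 (-1.20 ± 0.48, adjusted p = 0.168). It was 0.20, 0.21 and 0.25 RPM in Ajuba OE against 0.06, 0.10 and 0.09 RPM in Control, where it did not pass the expression filter and was not tested. CA12 was 0.60 and 0.62 RPM in shScrambled. It was lower in shAjuba1, at 0.23 to 0.30 RPM (-1.27 ± 0.32, adjusted p = 0.00753). In shAjuba2 it was also lower, at 0.16 to 0.26 RPM (-1.59 ± 0.32, adjusted p = 0.0272). CA12 passed the expression filter in both comparisons only through the shScrambled samples, where it was high, so these calls carry little weight. Parental, at 0.17 and 0.37 RPM, overlapped both KD lines, and neither KD line passed against it (-0.19, adjusted p = 0.753, and -0.50, adjusted p = 0.440). Without shScrambled replicate 1 or 2, CA12 did not pass in shAjuba1 (-1.26 and -1.26, adjusted p = 0.0509 and 0.0726) or shAjuba2 (-1.60 and -1.57, adjusted p = 0.208 and 0.242), with folds of about the same size. It also did not pass in shAjuba1 by DESeq2 (-1.26, adjusted p = 0.0985) and in shAjuba2 without replicate 1 or 3 (-1.74 and -1.42, adjusted p = 0.0731 and 0.0559). The antisense gene ARHGEF39 overlaps 35.7% of the exon bases of CA9 and had up to 1974 counts in a sample, and without strand their reads cannot be told apart.

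Among the 16 genes of glucose uptake and glycolysis, shAjuba1 had 5 DEG (31.3%, background 38.4%), shAjuba2 had 2 (12.5%, background 7.63%) and Ajuba OE had 1 (6.25%, background 5.43%). PFKFB3 (hg38 chromosome 10, 6144934 to 6254644, plus strand), the bifunctional enzyme that makes the activator of phosphofructokinase, rose in shAjuba1 and in Ajuba OE. It was 31.0, 28.2 and 35.1 RPM in shAjuba1 against 13.7 and 16.1 RPM in shScrambled (1.06 ± 0.12, adjusted p = 1.56e-05), and 29.7, 26.8 and 29.3 RPM in Ajuba OE against 20.9, 21.8 and 21.9 RPM in Control (0.47 ± 0.09, adjusted p = 0.0240). Parental was 24.6 and 23.1 RPM, so the rise compared to Parental was 0.37 in shAjuba1 (adjusted p = 0.0145) and 0.31 in Ajuba OE, which did not pass (adjusted p = 0.141). PFKFB3 was 20.4, 21.6 and 19.3 RPM in shAjuba2 (0.41 ± 0.14, adjusted p = 0.120), and the KD lines differed by 0.67 ± 0.12 (adjusted p = 0.00459). In Ajuba OE the call was lost without Control replicate 1, 2 or 3 or Ajuba OE replicate 1 or 3, with adjusted p from 0.0632 to 0.128 and log2 fold changes from 0.45 to 0.49, and with library size alone in place of TMM (0.41, adjusted p = 0.0542).

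HK2, the hexokinase induced in tumors, was higher in both KD lines than in shScrambled but not than in Parental. It was 59.3, 59.9 and 71.3 RPM in shAjuba1 and 71.1, 70.9 and 80.6 RPM in shAjuba2, above the 51.8 and 49.7 RPM of shScrambled (0.31 ± 0.10, adjusted p = 0.0234, and 0.50 ± 0.12, adjusted p = 0.0482). Parental had 82.9 and 78.8 RPM, and compared to Parental HK2 was lower in shAjuba1 (-0.38 ± 0.09, adjusted p = 0.00690) and did not pass in shAjuba2 (-0.18 ± 0.12, adjusted p = 0.311). The sign of the HK2 difference turned with the control line in both KD lines. Without shScrambled replicate 1 or 2, HK2 did not pass in shAjuba1 (0.36 and 0.27, adjusted p = 0.0895 and 0.185) or shAjuba2 (0.53 and 0.47, adjusted p = 0.356 and 0.387). In shAjuba2 it was also lost without replicate 1 or 3 (0.56 and 0.46, adjusted p = 0.108 and 0.0738) and with the size factors of DESeq2 in place of TMM (0.50, adjusted p = 0.0521). SLC2A3, the high-affinity glucose transporter GLUT3, was 1139, 947 and 1100.4 RPM in shAjuba2 against 1644 and 1589.9 RPM in shScrambled (-0.66 ± 0.14, adjusted p = 0.0343), and 849, 657 and 861 RPM in Ajuba OE against 1427, 1131 and 1215 RPM in Control (-0.61 ± 0.15, adjusted p = 0.0577). Without replicate 2 of both lines, SLC2A3 was -0.58 ± 0.12 in Ajuba OE and passed (adjusted p = 0.0207), and compared to Parental it was -0.68 (adjusted p = 0.0364). In shAjuba2 it did not pass without shScrambled replicate 1 or 2 (adjusted p = 0.314 and 0.271) or shAjuba2 replicate 1 or 3 (adjusted p = 0.128 and 0.0565), with log2 fold changes of -0.68 to -0.63, nor with library size alone in place of TMM (-0.61, adjusted p = 0.0515).

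The other DEG of this group in shAjuba1 fell. PFKFB4, which controls the same activator, was 22.5, 21.3 and 25.4 RPM against 28.4 and 33.5 RPM in shScrambled (-0.44 ± 0.11, adjusted p = 0.00538), and PDK1, the kinase that closes pyruvate dehydrogenase, was 17.4, 17.7 and 14.3 RPM against 22.5 and 21.5 RPM (-0.43 ± 0.11, adjusted p = 0.00949). PGK1, phosphoglycerate kinase, was 364, 348 and 378 RPM against 462 and 439 RPM (-0.33 ± 0.08, adjusted p = 0.00710). Compared to Parental, PGK1 remained lower (-0.27, adjusted p = 0.0137), whereas PFKFB4 (-0.03, adjusted p = 0.815) and PDK1 (-0.15, adjusted p = 0.325) did not pass. Against shScrambled, PFKFB4 was lost without shScrambled replicate 2 (-0.32, adjusted p = 0.118), PGK1 without shScrambled replicate 1 (-0.27, adjusted p = 0.0946) or with 1 spread over all 16 samples (-0.31, adjusted p = 0.514) and PDK1 without either (-0.38, adjusted p = 0.114, and -0.47, adjusted p = 0.0545). UCN2, a gene on the same strand that shares 4.88% of the exon bases of PFKFB4, also fell in shAjuba1 (-0.40 ± 0.13, adjusted p = 0.0325), and its part in the PFKFB4 result was not tested.

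The abundant glycolytic enzymes varied widely between the replicates of 3 lines. In shAjuba2, PGK1 was 315, 184 and 459 RPM in replicates 1, 2 and 3, LDHA (lactate dehydrogenase A) was 672, 379 and 897 RPM, and TPI1 was 496, 261 and 607 RPM. In Control, LDHA was 923, 518 and 857 RPM, and in Ajuba OE it was 1051, 606 and 882 RPM, replicate 2 again being the lowest of the line. The log2 CPM of replicate 2 minus the mean of replicates 1 and 3 was between -1.04 and -0.28 for ALDOA, TPI1, PGK1, PGAM1, ENO1 and LDHA in these 3 lines, and between -0.12 and 0.07 in shAjuba1. Not all of the group went down, since the neuronal enolase ENO2 was higher in replicate 2 of all 3 lines by 0.49 to 0.55. Replicate 2 was below both other samples of its line for 9 of 16 genes of the group in shAjuba2, for 11 in Control and for 11 in Ajuba OE (56.3%, 68.8% and 68.8%), against 37.7%, 37.6% and 38.4% of all genes tested. It was also below for 11 of 16 in shAjuba1 (68.8% against 35.4%), where the median shift was smaller, at -0.10 log2 units compared to -0.21, -0.17 and -0.20 in the other 3 lines. GAPDH, a further glycolytic gene, shifted by -0.71, -0.41 and -0.36 in shAjuba2, Control and Ajuba OE.

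**Figure D4:**
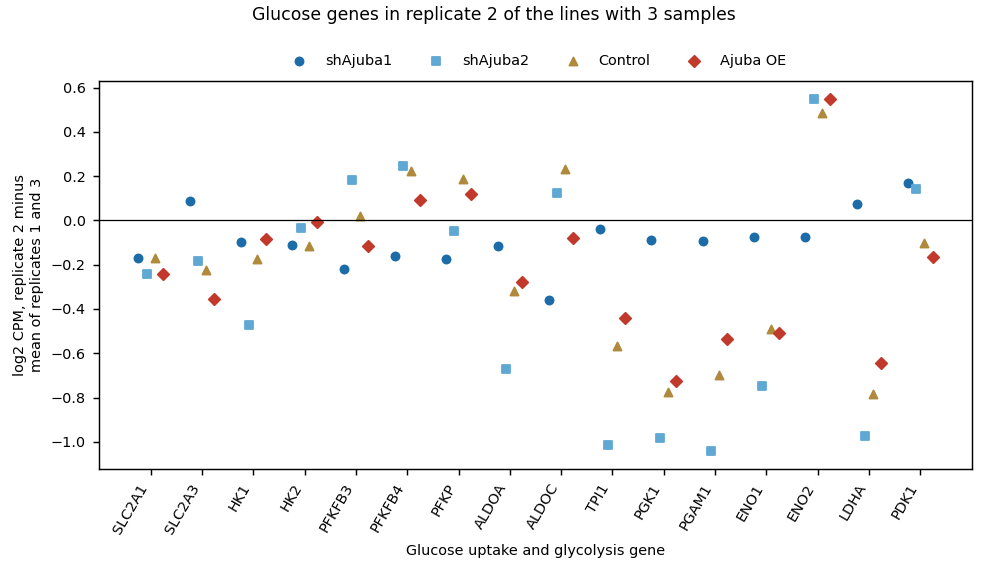
Difference in log2 CPM between replicate 2 and the mean of replicates 1 and 3 (vertical axis) for the 16 glucose uptake and glycolysis genes (horizontal axis) in the 4 lines with 3 samples. ALDOA, TPI1, PGK1, PGAM1, ENO1 and LDHA lie below 0 in shAjuba2, Control and Ajuba OE while ENO2 lies 0.49 to 0.55 above it, and the shAjuba1 points stay nearer to 0.

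With these samples included, the 6 enzymes had SE of 0.23 to 0.31 in shAjuba2 and 0.14 to 0.26 in Ajuba OE, and none of them passed. Without replicate 2, 15 of the 38 genes were DEG in shAjuba2 compared to shScrambled, with 6 higher and 9 lower, while the background rose from 7.63% to 22.7%. Without replicate 2 of both lines, 7 genes were DEG in Ajuba OE compared to Control, with 5 higher and 2 lower, and the background rose from 5.43% to 8.18%. All 6 and all 3 genes called with every sample were called again. None of PGK1, LDHA, TPI1, PGAM1, ENO1 and ALDOA was among those gained in either line.

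Of the 5 mitophagy and stress genes, BNIP3L, a mitophagy receptor of the outer mitochondrial membrane, fell most in shAjuba1. It was 48.0, 47.8 and 35.9 RPM in shAjuba1 against 86.0 and 78.9 RPM in shScrambled (-0.92 ± 0.12, adjusted p = 7.32e-05), and Parental, at 61.5 and 71.4 RPM, was also above all of them (-0.63, adjusted p = 0.00264). In shAjuba2 it was 50.9, 30.3 and 56.9 RPM (-0.89 ± 0.23, adjusted p = 0.0593), and without replicate 2 it passed (-0.67 ± 0.10, adjusted p = 0.000156). In Ajuba OE it was 55.4, 31.6 and 49.5 RPM against 78.0, 49.3 and 61.7 RPM in Control, and the groups overlapped (-0.41 ± 0.23, adjusted p = 0.400). Its antisense neighbour PNMA2 shares 7.95% of its exon bases. PNMA2 was lower in Ajuba OE (-1.14 ± 0.11, adjusted p = 0.00165) and did not pass in shAjuba1 (-0.16 ± 0.09, adjusted p = 0.164). The part of PNMA2 in the BNIP3L result was not tested.

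ANKRD37 (hg38 chromosome 4, 185396021 to 185400628, plus strand), a small ankyrin repeat protein known as a HIF target, rose in Ajuba OE. It was 7.59, 5.58 and 5.96 RPM there, and 3.38, 3.16 and 3.94 RPM in Control (0.93 ± 0.16, adjusted p = 0.0153), with no overlap between Ajuba OE and any other line. Compared to Parental, at 2.94 and 2.97 RPM, it was 1.16 ± 0.18 (adjusted p = 0.00839), and in shAjuba1 and shAjuba2 it did not pass (0.04 ± 0.16, adjusted p = 0.882, and 0.20 ± 0.20, adjusted p = 0.574). Without Control replicate 1 or 3 or Ajuba OE replicate 1 or 3 the log2 fold change was 0.81 to 1.03 and the adjusted p was 0.0512 to 0.0653. The antisense gene UFSP2 covers 40.4% of the exon bases of ANKRD37. In Ajuba OE UFSP2 changed by 0.31 ± 0.16 (adjusted p = 0.349), and its part in the ANKRD37 result was not tested.

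DDIT4, an inhibitor of mTORC1 induced by stress, was 5.30, 5.44 and 6.93 RPM in shAjuba1 against 3.76 and 4.43 RPM in shScrambled (0.50 ± 0.15, adjusted p = 0.0192). Parental had 7.31 and 8.12 RPM, and compared to Parental the direction was the opposite (-0.42 ± 0.14, adjusted p = 0.0307). DDIT4 was 12.8, 10.9 and 11.9 RPM in Ajuba OE, the highest of the 6 lines, against 9.03, 8.98 and 9.61 RPM in Control (0.43 ± 0.10, adjusted p = 0.0587), and compared to Parental it was 0.67 ± 0.13 (adjusted p = 0.0238). NDRG1, a stress-responsive gene of differentiated epithelium, was 118, 109 and 125 RPM in shAjuba1 against 100.0 and 95.0 RPM in shScrambled (0.25 ± 0.08, adjusted p = 0.0291). In shAjuba1, DDIT4 did not pass without shScrambled replicate 1 or 2 (0.41 and 0.62, adjusted p = 0.158 and 0.0504). NDRG1 was lost without either of them (0.31 and 0.21, adjusted p = 0.0824 and 0.221), without shAjuba1 replicate 1 (0.25, adjusted p = 0.113) and with 1 spread over all 16 samples (0.27, adjusted p = 0.0822). BNIP3, the close relative of BNIP3L, was low at 2.02 to 3.67 RPM and did not pass in shAjuba1 (-0.26 ± 0.15, adjusted p = 0.199), shAjuba2 or Ajuba OE.

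Of the 5 genes of chromatin, matrix and transcription, KDM3A, a histone H3 lysine demethylase, rose in shAjuba1 to 80.3, 81.9 and 76.8 RPM from 50.3 and 60.4 RPM in shScrambled (0.51 ± 0.10, adjusted p = 0.00109), and it was above Parental as well (0.23, adjusted p = 0.0393). P4HA2, a collagen prolyl hydroxylase, was 57.0, 59.9 and 56.5 RPM in shAjuba1 (-0.31 ± 0.08, adjusted p = 0.0104) and 50.8, 39.5 and 52.3 RPM in shAjuba2 (-0.62 ± 0.14, adjusted p = 0.0382), below the 70.7 and 70.6 RPM of shScrambled. Parental was 57.5 and 59.7 RPM, and neither KD line passed against it (-0.05, adjusted p = 0.658, and -0.36, adjusted p = 0.136). Without shScrambled replicate 1 or 2, P4HA2 did not pass in shAjuba1 (-0.28 and -0.32, adjusted p = 0.107 and 0.0744) or shAjuba2 (-0.62 and -0.63, adjusted p = 0.293 and 0.281). It was also lost without replicate 1 of shAjuba1 (-0.30, adjusted p = 0.0668) or of shAjuba2 (-0.65, adjusted p = 0.114), in shAjuba1 with 1 spread over all 16 samples (-0.29, adjusted p = 0.0784) and in shAjuba2 with library size alone in place of TMM (-0.57, adjusted p = 0.0590). MXI1, an antagonist of MYC, was 11.1, 12.6 and 10.3 RPM in shAjuba1 against 15.6 and 17.2 RPM (-0.55 ± 0.11, adjusted p = 0.00226), and compared to Parental it did not pass (-0.26, adjusted p = 0.0972). BHLHE40, a transcriptional repressor of the circadian clock, was not a DEG in either KD line compared to shScrambled, but the KD lines differed from each other, with 70.7, 72.0 and 77.3 RPM in shAjuba1 and 65.1, 54.0 and 51.2 RPM in shAjuba2 (0.42 ± 0.12, adjusted p = 0.0321).

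A direct comparison of the 2 KD lines called 6 of the 37 genes tested (16.2%, background 19.6%), with 4 higher (background 9.47%) and 2 lower (background 10.1%) in shAjuba1. The 4 were EGLN3, PFKFB3, BHLHE40 and SLC2A3, which was 1545, 1565 and 1411 RPM in shAjuba1 (0.55 ± 0.13, adjusted p = 0.0179), and the 2 were ARNT and ADM. ADM and PFKFB3 were called without any 1 sample. ARNT was lost without shAjuba1 replicate 1 or 2 or shAjuba2 replicate 1 (-0.50, -0.56 and -0.48, adjusted p = 0.0848, 0.0520 and 0.0588), and EGLN3 without shAjuba1 replicate 1 (0.75, adjusted p = 0.0664). SLC2A3 was lost without the same 3 samples as ARNT (0.52 to 0.59, adjusted p from 0.0583 to 0.0847), and BHLHE40 without any shAjuba1 replicate or shAjuba2 replicate 3 (0.34 to 0.45, adjusted p from 0.0731 to 0.103) or with library size alone in place of TMM (0.37, adjusted p = 0.0587). AJUBA did not pass in this comparison (-0.26 ± 0.12, adjusted p = 0.141).

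The control lines were compared to learn how far the list moves without a targeted change of Ajuba. In shScrambled compared to Parental, 25 of 38 genes were DEG (65.8%, background 30.7%), of which 11 were higher (background 15.0%) and 14 lower (background 15.6%). HK2 (-0.68 ± 0.08, adjusted p = 4.12e-07), PFKFB3 (-0.68 ± 0.10, adjusted p = 1.70e-05), DDIT4 (-0.91 ± 0.14, adjusted p = 3.66e-05), EGLN3 (-0.53 ± 0.14, adjusted p = 0.00550) and ADM (-0.49 ± 0.10, adjusted p = 0.000727) were lower in shScrambled, as were EPAS1 and EGLN1, and HIF1A by a small step (-0.21 ± 0.07, adjusted p = 0.0327). Higher in shScrambled were CA9 (2.14 ± 0.54, adjusted p = 0.00413), CA12 (1.08 ± 0.38, adjusted p = 0.0327), ANGPTL4 (0.68 ± 0.24, adjusted p = 0.0342), BNIP3 (0.66 ± 0.18, adjusted p = 0.00747) and PFKFB4 (0.42 ± 0.09, adjusted p = 0.00139). CA9 and CA12 passed the expression filter here only through the shScrambled samples, where they were high, so their calls carry little weight. DESeq2 gave no adjusted p for CA9 or CA12, and neither was tested when every sample had to hold at least 10 counts. CA9 was also not tested without shScrambled replicate 2. Both this comparison and those of the KD lines contain the shScrambled samples, so the values are not independent of each other. This comparison rests on 2 samples a line. Without any 1 of them 1 sample remains in a line, so calls lost there say little about the size of a change. None of the 25 genes turned its sign in these fits where it was tested. DESeq2 called 18 (background 25.3%), and with 1 spread over all 16 samples 7 were called (background 7.19%). In Control compared to Parental, 0 of 37 genes were DEG by edgeR (background 0.370%) and 0 by DESeq2 (background 2.35%), and 5 had an unadjusted p under 0.05 (background 19.5%). Counted against Parental, 9 of the 17 DEG of shAjuba1 were called in the same direction (EPAS1, ARNT, VEGFA, ANGPTL4, PFKFB3, PGK1, BNIP3L, NDRG1 and KDM3A), 6 kept their sign and did not pass, and 2 (HK2 and DDIT4) were called in the opposite direction. None of the 6 DEG of shAjuba2 passed against Parental, where 5 kept their sign and HK2 did not, and of the 3 DEG of Ajuba OE EPAS1 and ANKRD37 passed again.

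A further 49 genes of the pathway, 12 regulators and 37 targets, were counted by the same tests, and 48 of them were tested. In shAjuba1, 21 were DEG (43.8%, background 38.4%), 7 higher and 14 lower. In shAjuba2, 6 were DEG (12.5%, background 7.63%), 1 higher and 5 lower, and in Ajuba OE 12 were DEG (25.0%, background 5.43%), 2 higher and 10 lower. CITED2, a competitor of HIF for the coactivators CBP and p300, was lower in shAjuba1 (-1.18 ± 0.09, adjusted p = 1.16e-06) and in Ajuba OE (-1.57 ± 0.21, adjusted p = 0.00533). WTIP, a LIM protein of the Ajuba family, was higher in shAjuba1 (0.91 ± 0.15, adjusted p = 0.000364) and lower in Ajuba OE (-0.71 ± 0.16, adjusted p = 0.0475). In shAjuba2 none of the 11 regulators tested was a DEG by edgeR, CITED2 and WTIP included. By RT-qPCR, a different assay, the study reported no change of WTIP after KD. Values against Parental are not given here for CITED2 and WTIP. PDK3, a second pyruvate dehydrogenase kinase, was 4.75, 4.91 and 4.69 RPM in shAjuba1 and 5.14, 3.51 and 5.62 RPM in shAjuba2, below the 12.7 and 12.3 RPM of shScrambled, and 8.37, 6.38 and 8.02 RPM in Ajuba OE against 5.13, 4.59 and 5.56 RPM in Control. Its log2 fold change was -1.40 ± 0.11 (adjusted p = 1.01e-06), -1.45 ± 0.20 (adjusted p = 0.00682) and 0.64 ± 0.14 (adjusted p = 0.0448), respectively. VLDLR, a lipoprotein receptor, had the reverse order, with 1.56 ± 0.11 in shAjuba1 (adjusted p = 3.80e-07), 0.89 ± 0.15 in shAjuba2 (adjusted p = 0.0162) and -0.64 ± 0.11 in Ajuba OE (adjusted p = 0.0154). Parental had 6.73 and 7.78 RPM of PDK3, above all KD samples and within the range of Ajuba OE. Its VLDLR level was 36.1 and 37.3 RPM, below the 40.5 to 47.3 RPM of shAjuba1 and above the 25.3 to 32.8 RPM of shAjuba2. The rises of PDK3 in Ajuba OE and of VLDLR in shAjuba2 were thus not seen beside Parental. For both genes shScrambled again differed from Parental, by 0.78 ± 0.12 for PDK3 (adjusted p = 2.60e-05) and -1.33 ± 0.09 for VLDLR (adjusted p = 1.15e-10).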

How the data were processed

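The authors prepared stranded, paired-end mRNA libraries, aligned reads to hg38 with HISAT2 and counted reads per gene on exons with featureCounts, and they deposited raw counts, used here as such. Strand handling in counting, tool versions and annotation release are not given in the sources used here. Symbols, positions and exon lengths are from GENCODE for hg38, which held 56434 of the 66023 identifiers. RPM is a count divided by the sample total. Each pair of lines was fitted on its own in R 4.3.3 with edgeR 4.0.16 (filterByExpr, TMM, quasi-likelihood test, two-sided, Benjamini-Hochberg over all genes tested), and SE was derived from the fold change and F, as |log2 fold change|/√F. DESeq2 1.42.0 was an alternative. log2 CPM used a prior count of 2. The fits were first tested on simulated counts. The 38 genes, the further pathway genes and the markers were chosen with earlier results of these data known. Named are all DEG among the 38 genes, up to 12 per comparison by size of fold change, together with HIF subunits, VHL, PHD genes, CA9 and VEGFA; HK2, NDRG1, PGK1 and P4HA2 in shAjuba1 and the pathway genes CITED2, WTIP, PDK3 and VLDLR, and the overlapping genes, were named after their values were seen. Of the 38 genes, 14 have 84 named pseudogene copies (PGAM1, LDHA, ENO1, TPI1, PGK1 and BNIP3 among them), and how reads were shared with these is not known. Depth limits CA9 and CA12 most; intervals cover the spread between samples only.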

Additional observations from a re-analysis of the deposited data

Results flagged for a closer look

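Of the 37 genes tested, 6 (16.2%, background 19.6%) differed between the 2 KD lines in the direct test (edgeR, shAjuba1 compared to shAjuba2). The log2 fold changes were -0.55 for ARNT, 0.83 for EGLN3, -1.04 for ADM, 0.55 for SLC2A3, 0.67 for PFKFB3 and 0.42 for BHLHE40. In each of the 6 the 3 samples of shAjuba1 lay wholly on 1 side of the 3 samples of shAjuba2. This adds no support, since the genes were picked by a test on the same samples, and the share of all genes so separated was not counted. Leaving out 1 sample ended the call of ARNT (without shAjuba1 replicate 1 or 2 or shAjuba2 replicate 1), EGLN3 (without shAjuba1 replicate 1), SLC2A3 (without the same 3 samples as ARNT) and BHLHE40 (without any shAjuba1 replicate or shAjuba2 replicate 3), with adjusted p from 0.0520 to 0.103, while ADM and PFKFB3 kept theirs. Groups of 2 or 3 samples are too small for a formal search for single outlying samples, so none was made. The shift of replicate 2 was only described.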

How the results depend on the processing

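Directions of the called genes held in nearly every alternative, while counts of calls, in the list and over all genes, depended on single samples. Over 63 named values, 806 alternatives gave 680 with the same direction and side of the threshold, 87 no longer passing, 11 newly passing and 28 of the opposite sign. Leaving out 1 sample gave 9 to 21 DEG among the 38 genes in shAjuba1, 0 to 15 in shAjuba2, 0 to 3 in Ajuba OE, 2 to 10 between the KD lines, 11 to 16 in shScrambled compared to Parental and 0 to 1 in Control compared to Parental, and leaving out 1 replicate number gave 5 to 24 over the 6 lines. The share of all genes called moved too. Without 1 shAjuba1 sample it was 31.4% to 45.4% in shAjuba1, and without 1 shAjuba2 sample 2.24% to 22.7% in shAjuba2. Without 1 sample it was 1.89% to 4.57% in Ajuba OE and 9.83% to 26.9% between the KD lines. In Control compared to Parental it was 0.0847% to 4.73% without 1 Control sample. It was below the main fit in every fit that left 1 sample in a line. The counts in the list alone thus do not show a change particular to it. With 1 spread over all 16 samples the counts in the list were 13 in shAjuba2, 7 in Ajuba OE, 12 between the KD lines, 7 in shScrambled and 1 in Control compared to Parental (15.6%, 10.1%, 24.2%, 7.19% and 2.25% of all genes). With every gene of at least 1 count they were 10 between the KD lines and 4 in Control (12.5% and 4.81% of all genes). DESeq2 gave 5 in Ajuba OE (6.72%), and leaving out replicate 2 of both lines gave 7 there (8.18%). With Parental as the control shAjuba2 had 2 (8.14%). The cause was not tested.

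When replicate numbers entered as a block, 17 genes were called in shAjuba2 and 19 in Ajuba OE, while calls over all genes rose to 24.0% and 24.3%, 4 of 6 calls between the KD lines were kept (not SLC2A3 and BHLHE40), and EGLN1 in shAjuba2 was -0.016. The numbers were not used to pair samples in the main fits, since the samples share only a number. Same-numbered deviations of Ajuba OE and Control correlated at 0.10, 0.50 and -0.05 for replicates 1, 2 and 3. The count of calls in Ajuba OE depends on this choice.

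Among DEG, the sign turned with Parental as the control for DDIT4 (-0.42) and HK2 (-0.38) in shAjuba1 and HK2 in shAjuba2 (-0.18). The other values that turned belonged to genes that were no DEG in that comparison. With Parental they were -0.20 for HIF1A and 0.27 for EGLN2 in shAjuba1, 0.084 for VHL and -0.40 for EGLN1 in shAjuba2, and -0.15 for HIF1A and -0.16 for EGLN1 in Ajuba OE. Leaving out 1 sample gave -0.026 to 0.096 for HIF1A and -0.15 to 0.071 for EGLN2 in shAjuba1, -0.036 to 0.078 for VHL and -0.22 to 0.085 for EGLN3 in shAjuba2, and -0.031 to 0.12 for HIF1A, -0.029 to 0.099 for EGLN1 and -0.051 to 0.30 for VEGFA in Ajuba OE. Scaling by library size alone gave 0.044 for VHL in shAjuba2 and -0.022 for HIF1A and -0.028 for EGLN1 in Ajuba OE. VHL in shAjuba2 was 0.0035 with all 16 samples and 0.0039 with at least 10 counts in every sample. Depth limits CA9 and CA12, whose counts reached 25 and 31 at most.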
